A study of Mus musculus with 4 samples.

Results

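Expression of 10 genes that mark regulatory T cells or act as immune checkpoints was followed through the mouse carotid artery before and after wire injury. The 10 members, Foxp3, Il2ra, Ctla4, Icos, Tnfrsf18, Pdcd1, Tigit, Lag3, Havcr2 and Cd274, were chosen by name, not by their values, and are 10 of the 31053 genes listed in each count matrix, of which 20506 had at least 1 unique molecular identifier (UMI, 1 counted mRNA molecule). All 10 were in the matrices. In the cells kept, Foxp3, Tigit and Havcr2 had no UMI at day 0, and Foxp3 had none at day 3, whereas every member had UMIs at days 7 and 14.

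Regulatory T cells are CD4 T cells that restrain other immune cells. FOXP3 is the transcription factor that defines them, and they carry high levels of the IL-2 receptor alpha chain (CD25, from Il2ra), of CTLA-4, which competes with the activating receptor CD28 for CD80 and CD86, and of the costimulatory receptors ICOS and GITR (from Tnfrsf18). PD-1 (from Pdcd1), TIGIT, LAG-3 and TIM-3 (from Havcr2) are inhibitory receptors that T cells express upon activation, and PD-L1 (from Cd274) is the ligand of PD-1. Activated T cells, innate lymphocytes and myeloid cells also use several of these genes, so only Foxp3 is a defining marker. In injured arteries, regulatory T cells are known for limiting inflammation and neointima formation.

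The vessels came from male C57BL/6 mice aged 11 weeks before injury, and the labels name no genetic change or drug in any group. Uninjured carotids formed the day 0 group, and carotids collected 3, 7 and 14 days after a wire had been passed through the vessel formed the others. Vessels of several mice were pooled per time point and digested with the same enzymes, thrombosed vessels were left out by the study, and each group was a single 10x Genomics 3′ library. There were hence no replicates and no tests, and every interval below is a 95% interval for counting error alone. The libraries held 333, 1689, 3001 and 1138 barcodes and between 2672722 and 27973418 UMIs. Barcodes were shared between libraries: 152 of the 333 barcodes of day 0 were also in the day 3 library, 64 were in both the day 7 and the day 14 library, and 1 was in both day 3 and day 7. The shallower copy held a median of 4.39% of the UMIs of the deeper copy for the first pair of libraries and 1.12% for days 7 and 14, and the 217 shallower copies were removed. After filtering, 281, 1405, 2690 and 1029 cells remained, with median depths of 7959, 5458, 6328.5 and 10764 UMIs.

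Cells were clustered without the 10 members and named from marker genes, and each name marks resemblance only. T cell-like cells numbered 18, 65, 367 and 93 at days 0, 3, 7 and 14, or 6.41%, 4.63%, 13.6% and 9.04% of the cells kept. Of the 18 at day 0, 13 lay in a sub-cluster led by Dntt and Rag1, genes of immature thymocytes, so the day 0 class is described but enters no comparison. Only 7 cells were smooth muscle-like at day 0, although the labelled tissue is an artery. In all, 754 of the 5405 cells stayed unnamed. Levels are given as CPM, the UMIs of a gene per 1000000 UMIs of a class in a library, with exact Poisson intervals, and shares of cells with exact Clopper-Pearson intervals. A difference is counted below when it was at least 2-fold, its exact interval left out 1, and the 2 groups together held at least 20 UMIs. The share of all genes that met the same rule is printed beside the counts.

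For 6 of the 10 members, most UMIs lay in T cell-like cells. Over all 4 libraries these cells held 87.2% of the Foxp3 UMIs, 83.3% of those of Ctla4, 82.8% of Icos, 73.1% of Pdcd1 and 54.2% of Tnfrsf18. For Tigit it was 55.6%, or 10 of 18 UMIs. The UMIs of the other members lay mostly elsewhere. Dendritic-like cells held 37.9% of the Il2ra UMIs, close to the 36.9% of the T cell-like class, and 43.8% of those of Cd274, and monocyte/macrophage-like cells held 70.0% of the Havcr2 UMIs. The dendritic-like shares depend on how cells were named, since the class had 60 or 61 cells at day 7 in place of 358 when doublets or shared barcodes were kept or 500 genes were asked of a cell. At day 7, 7 of the 10 members had their highest CPM in the T cell-like class among the classes of at least 20 cells. The exceptions were Tigit, with 6 UMIs (6.24 CPM, 2.29 to 13.6) in NK cell-like and 5 UMIs (2.21 CPM, 0.718 to 5.16) in T cell-like cells and overlapping intervals, Cd274, which was highest in neutrophil-like cells, and Havcr2, which stood at 89.2 CPM (61.4 to 125) in neutrophil-like and 80.4 CPM (74.4 to 86.6) in monocyte/macrophage-like cells. The intervals of these 2 Havcr2 levels do not set them apart, and without the neutrophil-like cell with the highest count, which held 6 of 33 UMIs, the first was 73.6 CPM. Lag3 was among the 7, although the interval of its ratio to the other immune-like cells held 1 at day 7. The plasmacytoid dendritic-like class, with under 20 cells, stood higher for Lag3. The share of all genes with most UMIs or the highest CPM in T cell-like cells was not taken.

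**Figure D1:**
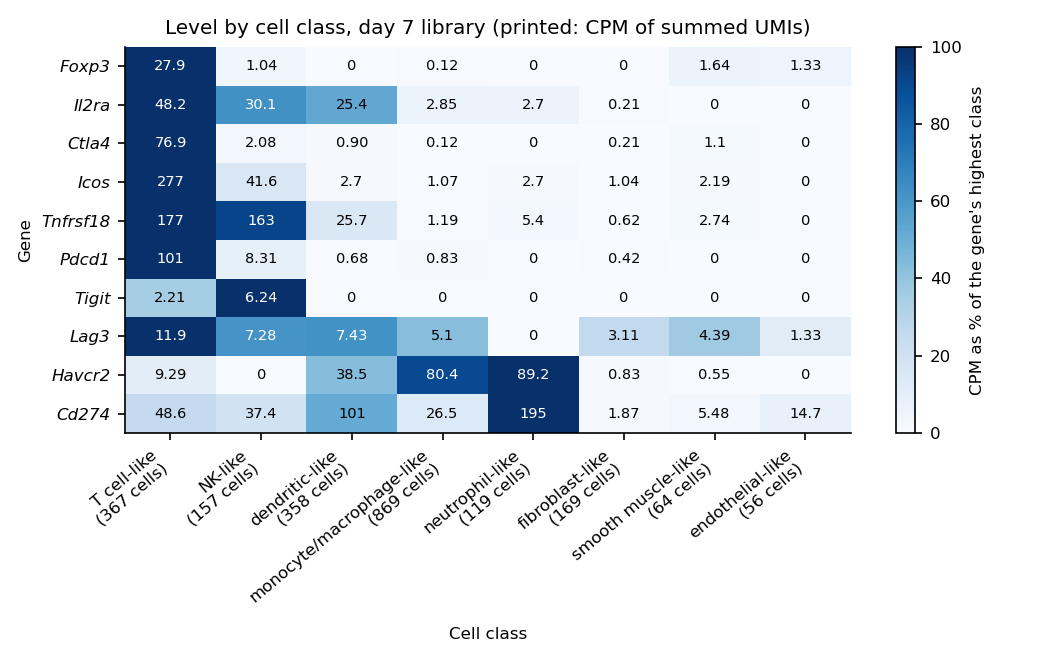
Level of each member (rows) in the cell classes of the day 7 library (columns, with their number of cells), printed as CPM of the summed UMIs and shaded relative to the gene's own highest class. Foxp3, Ctla4 and Pdcd1 stood at 27.9, 76.9 and 101 CPM in the T cell-like column and at most 8.31 CPM in the other named classes of at least 20 cells, Icos was also seen in NK cell-like cells (41.6 against 277 CPM), Tnfrsf18 was nearly as high in NK cell-like (163 CPM) as in T cell-like cells (177 CPM), Cd274 was highest in neutrophil-like cells (195 CPM), and Havcr2 stood at 89.2 CPM there and 80.4 CPM in monocyte/macrophage-like cells, with overlapping intervals.

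T cell-like cells were set against all other immune-like classes of the same library, which shares every technical step. At day 3, 6 of the 8 members with enough UMIs were higher in T cell-like cells and 0 lower, where 13.1% of all genes tested were higher and 14.5% lower. At day 7 it was 6 higher and 1 lower of 9, beside 13.6% and 16.5% of all genes, and at day 14 it was 5 higher and 1 lower of 8, beside 11.4% and 15.1%. Icos had 277 CPM in T cell-like cells against 4.32 CPM in the other immune-like cells at day 7, a ratio of 64.2 (49.4 to 84.8). Ctla4 stood at 76.9 against 0.487 CPM, a ratio of 158 (75.0 to 398), and Pdcd1 at 101 against 1.25 CPM, a ratio of 80.8 from 229 and 18 UMIs. Il2ra, with a ratio of 4.02 (3.14 to 5.15), and Tnfrsf18, with 8.87 (7.61 to 10.4), were less restricted. Havcr2 was the member that was lower, with 9.29 against 61.5 CPM at day 7 (ratio 0.151, 0.093 to 0.232) and 7.96 against 47.7 CPM at day 14. The ratio of Cd274 lay between 0.835 and 1.03 at the 3 time points, and its interval held 1 each time. At day 3 the higher level of Ctla4 and that of Lag3 no longer met the rule once the T cell-like cell with the highest count of the gene was left out, since Ctla4 then had under 20 UMIs and the interval of Lag3 held 1, leaving 4 members.

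Foxp3 was seen from day 7 on. In T cell-like cells its UMIs numbered 0, 0, 63 and 5 at days 0, 3, 7 and 14. The 63 UMIs came from 20 of 367 cells, or 5.45% (3.36% to 8.29%), with at most 7 UMIs in a cell, and the 5 UMIs came from 3 of 93 cells, or 3.23% (0.670% to 9.14%). The absence at day 3 rests on 65 cells. The exact upper limit for 0 of 65 cells is 5.52% of cells with a UMI, a range that holds the 5.45% of day 7. The CD4 T-like subset held 19 of the 20 cells at day 7 and all 3 at day 14, which made 13.3% (8.19% to 20.0%) of 143 and 14.3% (3.05% to 36.3%) of 21 CD4 T-like cells. The share of CD4 T-like cells with Foxp3 was thus nearly the same at both time points, with a wide interval at day 14, while CD4 T-like cells made up 12.3% (5.47% to 22.8%), 39.0% (33.9% to 44.2%) and 22.6% (14.6% to 32.4%) of the T cell-like class at days 3, 7 and 14. Only 8 CD4 T-like cells were present at day 3. No fibroblast-like cell of 169 at day 7 had a Foxp3 UMI at a median depth of 28227 UMIs, against 5524 UMIs in T cell-like cells without Foxp3.

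Outside the T cell-like class, 6 cells had Foxp3. At day 7 a smooth muscle-like cell of 64165 UMIs held 3 Foxp3 UMIs together with all 5 T cell markers examined (Cd3d, Cd3e, Cd3g, Trac, Trbc2), and at day 14 a dendritic-like cell held 3 together with all 5. The dendritic-like cell also had UMIs of 5 other members. The other 4 cells had 1 UMI each, in an NK cell-like, an endothelial-like, a monocyte/macrophage-like and an unnamed cell, with 0 or 1 of the 5 T cell markers. In the RefSeq annotation Foxp3 overlaps Ccdc22, and how the counting treated reads in such an overlap is not given in the sources used here.

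Between days 3 and 7 the T cell-like class differed in a few members. Of the 9 members with enough UMIs, 2 were higher at day 7 (Foxp3 and Icos) and 1 was lower (Havcr2), where 2.93% of all genes tested were higher and 3.12% lower. Foxp3 had no UMI at day 3 and was 3.49-fold higher at day 7 when 3 counts were taken in place of the 0. The exact lower limit of the ratio, which the rule uses, lies below that fold. Within CD4 T-like cells alone, Foxp3 had 0 UMIs in 8 cells at day 3 and 59 in 143 cells at day 7. The exact lower limit of that ratio was 0.954, so the rule was not met within this subset. Icos stood at 112, 117, 277 and 301 CPM at days 0, 3, 7 and 14. The intervals of days 7 and 14 lay above that of day 3, with 30.8% of T cell-like cells carrying a UMI at day 3 and 52.0% at day 7, and the ratio of day 7 to day 3 was 2.37 (1.75 to 3.30). The make-up of the class differed between these libraries, with 8 CD4 and 39 CD8 T-like cells at day 3 against 143 and 111 at day 7. Within the subsets, Icos stood at 171 CPM (74.0 to 338) and 490 CPM (441 to 542) in CD4 T-like cells and at 62.8 and 49.2 CPM in CD8 T-like cells. Havcr2 stood at 26.6 CPM at day 3, 9.29 at day 7 and 7.96 at day 14, from 10, 21 and 4 UMIs, and its ratio of day 7 to day 3 was 0.349 (0.158 to 0.831). Without the day 3 cell with the highest Havcr2 count, the gene no longer met the rule. The summed level of the 15 monocyte/macrophage markers in T cell-like cells was 826, 661 and 613 CPM at days 3, 7 and 14, with 2, 1 and 5 of the 15 at 0, and the part of such RNA in the Havcr2 values was not tested. The 9 fibroblast markers stood at 231, 753 and 850 CPM in T cell-like cells on these days, with 2, 0 and 0 at 0. Their part in the values of the class was not tested.

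Over the whole class, the other members tested differed by less than 2-fold between days 3 and 7. Ctla4 went from 47.8 to 76.9 CPM, Pdcd1 from 63.8 to 101 CPM and Cd274 from 26.6 to 48.6 CPM, with ratios of 1.61 (0.988 to 2.78), 1.59 (1.04 to 2.53) and 1.83 (0.959 to 3.92). Tnfrsf18 went from 122 to 177 CPM and Il2ra from 61.1 to 48.2 CPM. Within the subsets, the ratios of Ctla4 lay on opposite sides of 1. It stood at 42.9 and 203 CPM (4.74, 1.29 to 39.5) in CD4 T-like cells, from 2 and 154 UMIs. In CD8 T-like cells its ratio was 0.226 (0.0977 to 0.510). Pdcd1 had 0 and 101 UMIs in CD4 T-like cells, with a lower limit of the ratio of 1.66. Its ratio in CD8 T-like cells was 1.51 (0.728 to 3.51). The CD4 T-like values of day 3 rest on 8 cells. Leaving out the ILC2-like cells and the thymocyte-like sub-cluster, which were chosen for this after the data were examined, raised the count to 4 members higher at day 7, since Pdcd1 (3.08) and Tnfrsf18 (2.01) then also met the rule, and gave Il2ra a ratio of 1.31 in place of 0.789.

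From day 7 to day 14, 1 member was higher (Il2ra) and 1 lower (Foxp3) of 9 tested, beside 2.89% and 2.24% of all genes. Il2ra had 109 UMIs or 48.2 CPM (39.6 to 58.1) at day 7 and 63 UMIs or 125 CPM (96.4 to 160) at day 14, a ratio of 2.60 (1.88 to 3.58). The share of cells with an Il2ra UMI was 15.5% and 29.0%. The make-up of the class differed between these libraries too, with the 11 gamma-delta T markers at 895 and 1573 CPM, the 7 ILC2 markers at 425 and 767 CPM, with 0 and 1 at 0, and the share of CD4 T-like cells given above. In CD4 and CD8 T-like cells Il2ra was not above its day 7 level at day 14 (64.7 and 36.5 CPM, from 49 and 3 UMIs, and 22.7 and 6.55 CPM, from 18 and 1 UMIs), and without ILC2-like cells the class ratio was 2.23. Foxp3 stood at 27.9 against 9.95 CPM, a ratio of 0.357 (0.112 to 0.879) that rests on 5 UMIs at day 14. Ctla4, Pdcd1 and Cd274 were lower at day 14 by less than 2-fold, and Icos and Tnfrsf18 had nearly the same level at both time points, with ratios of 1.08 (0.902 to 1.30) and 1.04 (0.824 to 1.31). With libraries clustered separately, only 27 day 14 cells, those of the gamma-delta T-like subset, kept the T cell-like name, and the count of lower members became 3. The ratio of Pdcd1 was then 1.05 in place of 0.570 and that of Tnfrsf18 0.261 in place of 1.04. Without ILC2-like cells and the sub-cluster led by Dntt and Rag1, the ratio of Tnfrsf18 was 0.797.

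**Figure D2:**
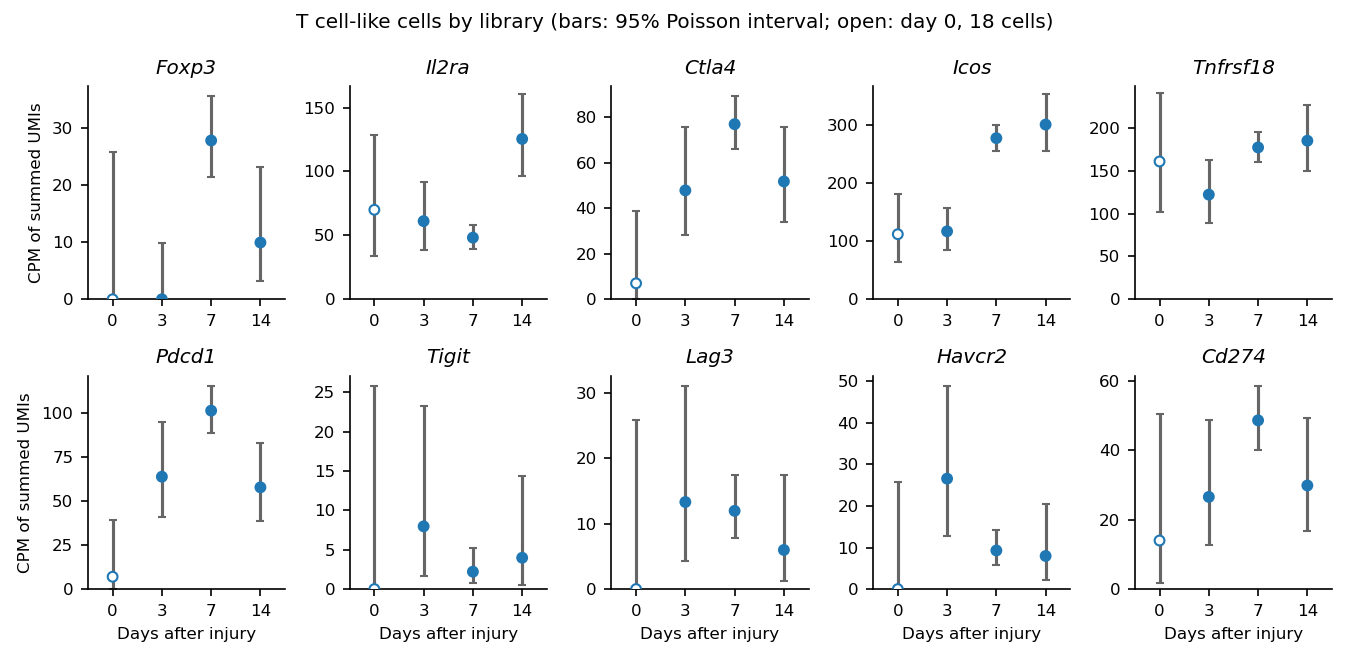
CPM of the summed UMIs of T cell-like cells (y axis) by days after injury (x axis), 1 panel per member, each point a library and each bar its 95% Poisson interval. Foxp3 appeared at day 7, Icos stood higher at days 7 and 14 (277 and 301 CPM) than at day 3 (117 CPM), and Il2ra was highest at day 14 (125 CPM), where ILC2-like cells held 20 and gamma-delta T-like cells 38 of its 63 UMIs, while the day 0 points rest on 18 cells.

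The members split the lymphoid subsets of day 7 apart. CD4 T-like cells (143 cells) were higher than CD8 T-like cells (111 cells) in 6 of 9 members tested and lower in 0, beside 7.23% and 4.44% of all genes. Foxp3 had no UMI in CD8 T-like cells and was 20.6-fold higher with 3 counts taken in place of that 0, a fold above the exact lower limit. Ctla4 stood at 203 against 15.1 CPM (ratio 13.4, 7.46 to 26.5) and Icos at 490 against 49.2 CPM (9.95, 7.14 to 14.2). Tnfrsf18 stood at 310 against 107 CPM (2.89, 2.25 to 3.75), Il2ra at 64.7 against 22.7 CPM (2.85, 1.63 to 5.19) and Pdcd1 at 133 against 56.8 CPM (2.35, 1.64 to 3.41). Lag3 and Havcr2, receptors often discussed for CD8 T cells, had 14.5 against 18.9 and 14.5 against 12.6 CPM, and the intervals of both ratios held 1. The CD8 T-like levels pool unlike sub-clusters. In the 43 cells of the one led by Cd8a and Cd8b1, Pdcd1 stood at 114 CPM (75.3 to 166) and Lag3 at 50.8 CPM (26.2 to 88.7). The 68 others, led by cell cycle genes, held them at 32.4 and 5.40 CPM. Only 30 of these 68 had a Cd8a or Cd8b1 UMI. Ctla4 stood at 21.1 and 12.6 CPM in these sub-clusters. Ratios of CD4 T-like cells to each were not taken. Cd274 had 39.6 against 42.9 CPM, and its ratio of 0.923 was 1.99 with libraries clustered separately and 3.59 with shared barcodes kept.

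Gamma-delta T-like cells, named from genes such as Trdc and Il17a, had a pattern of their own. At day 7 their 47 cells held Icos at 425 CPM (355 to 505), Pdcd1 at 217 CPM (168 to 277) and Il2ra at 75.8 CPM (48.0 to 114), but Tnfrsf18 at only 32.9 CPM (15.8 to 60.6), and Foxp3, Lag3 and Havcr2 had no UMI there. At day 14 their 27 cells held Il2ra at 252 CPM (178 to 346), an interval above that of day 7, and Pdcd1 at 106 CPM (60.6 to 172). Of the 63 Il2ra UMIs of the T cell-like class at day 14, 38 came from gamma-delta T-like and 20 from ILC2-like cells, against 23 and 14 of 109 at day 7. ILC2-like cells, innate lymphocytes named from genes such as Gata3 and Il1rl1, numbered 6 at day 7 and 6 at day 14 and held Il2ra at 417 and 408 CPM, from 14 and 20 UMIs. Tnfrsf18 stood at 477 and 632 CPM in them, and no Foxp3, Ctla4, Lag3 or Havcr2 UMI was found there.

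**Figure D3:**
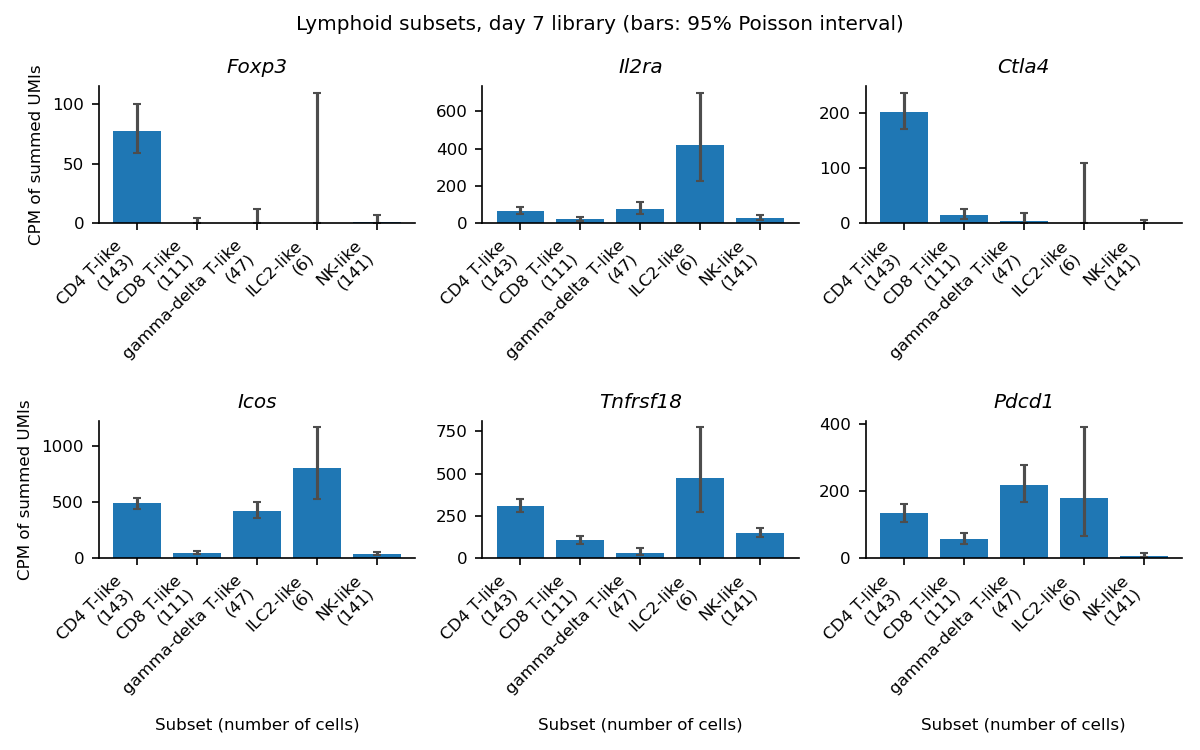
CPM of the summed UMIs (y axis) of 6 members in the lymphoid subsets of the day 7 library (x axis, number of cells in brackets), with 95% Poisson intervals. Foxp3 and Ctla4 were found almost wholly in CD4 T-like cells, Icos was shared by CD4 T-like and gamma-delta T-like cells, and Il2ra was highest in the 6 ILC2-like cells.

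Within CD8 T-like cells the inhibitory receptors were present at day 3 already. Havcr2 had 10 UMIs in 7 of 39 cells at day 3 (41.8 CPM, 20.1 to 76.9) and 10 UMIs in 8 of 111 cells at day 7 (12.6 CPM, 6.05 to 23.2), a ratio of day 7 to day 3 of 0.302 (0.113 to 0.808), and all Havcr2 UMIs of the T cell-like class at day 3 came from these cells. Ctla4 stood at 66.9 CPM (38.3 to 109) at day 3 and 15.1 CPM (7.83 to 26.5) at day 7, a ratio of 0.226 (0.0977 to 0.510). Pdcd1 stood at 37.7 and 56.8 CPM (1.51, 0.728 to 3.51) and Lag3 at 20.9 and 18.9 CPM (0.905, 0.313 to 3.18). Different sub-clusters held most of these cells on the 2 days: the one led by Cd8a and Cd8b1, with H2-Eb1, Cd74, H2-Aa and H2-Ab1 (antigen presentation by MHC class II) and Cx3cr1 also among its 10 leading genes, held 37 cells at day 3 and 43 at day 7, and the one led by the cell cycle genes Hist1h2ae and Rrm2 held 2 and 68. Within the first, Havcr2 stood at 45.9 and 25.4 CPM, from 10 and 6 UMIs, and Ctla4 at 50.5 CPM (25.2 to 90.3) and 21.1 CPM (6.87 to 49.3), each with under 20 UMIs in all, while Pdcd1 stood at 18.4 and 114 CPM, from 4 and 27 UMIs (6.22, 2.17 to 24.5). Lag3 stood there at 23.0 CPM (7.45 to 53.6) and 50.8 CPM (26.2 to 88.7), from 5 and 12 UMIs, also under 20 in all. All 10 Havcr2 UMIs of day 3 lay in that sub-cluster, in 7 cells. Each of the 7 had a UMI of Cd8a or Cd8b1 and of at least 1 of the 5 T cell markers, 2 had Cx3cr1, 2 had Lyz2 and 5 had 1 or more of the 4 MHC class II genes. The 15 monocyte/macrophage markers summed to 1290 CPM in them, with 8 of the 15 at 0, against 1149 CPM in the 30 other cells of the sub-cluster at day 3, with 3 at 0, and 33624 CPM in monocyte/macrophage-like cells. The part of such RNA in the Havcr2 values was not tested. The median depth of CD8 T-like cells was 5646 UMIs at day 3 and 5600 at day 7.

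The 20 T cell-like cells with a Foxp3 UMI at day 7 were compared with the 347 without. Foxp3 itself chose the cells, and the depth of the groups was alike, with medians of 5402.5 and 5524 UMIs. Of the 8 other members tested, 5 were higher in the cells with Foxp3 and 0 lower, beside 4.56% and 2.33% of all genes. Ctla4 had 638 against 46.6 CPM, a ratio of 13.7 (9.99 to 18.7), and was seen in 15 of 20 cells (75.0%, 50.9% to 91.3%) against 41 of 347 (11.8%, 8.61% to 15.7%). Il2ra had 293 against 35.0 CPM, a ratio of 8.38 (5.42 to 12.7), and was seen in 12 of 20 cells against 13.0% of the others. Tnfrsf18 had 698 against 149 CPM (4.68, 3.62 to 5.99) and Icos 715 against 254 CPM (2.82, 2.21 to 3.56), with a UMI in 15 and 18 of the 20 cells with Foxp3. Havcr2 had 86.1 against 5.13 CPM (16.8, 6.40 to 43.6), from 10 UMIs in 4 cells, and no longer met the rule without the cell with the highest count.

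Pdcd1 was not among the members that set these cells apart, with 138 against 99.3 CPM (1.39, 0.779 to 2.31) and a UMI in 30.0% against 27.1% of cells. Cd274 had 34.5 against 49.4 CPM (0.697, 0.187 to 1.84), and Lag3 had 25.8 against 11.2 CPM (2.31, 0.445 to 7.61). In fibroblast-like cells of the same library, at a median of 28227 UMIs, 0.592% had a UMI of Ctla4, of Il2ra or of Tnfrsf18, 2.37% of Icos and 1.18% of Pdcd1. After thinning every cell to 1000 UMIs, which left out 5 cells without and 0 cells with Foxp3, Ctla4 was seen in 35.0% against 4.97%, Il2ra in 15.0% against 2.92%, Icos in 8 of 20 cells against 20.2% and Tnfrsf18 in 8 of 20 against 13.5%. The thinned Il2ra share rests on 3 UMIs in the cells with Foxp3. In 20 further draws of the thinning, Ctla4 met the rule in 20, Tnfrsf18 in 18, Icos in 12 and Il2ra in 2. Among CD4 T-like cells alone, which was added after the data were examined, 3 members met the rule, and Icos, at a ratio of 1.62, did not.

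Seen from the other gene, 15 of the 56 T cell-like cells with Ctla4 at day 7 had Foxp3 (26.8%), as had 12 of the 57 with Il2ra (21.1%), 15 of the 175 with Tnfrsf18 (8.57%), 18 of the 191 with Icos (9.42%) and 6 of the 100 with Pdcd1 (6.00%). Most cells with any of these members thus had no Foxp3 UMI. Icos and Tnfrsf18 were seen together in 109 cells, 57.1% of the cells with Icos and 62.3% of those with Tnfrsf18. Of the 367 cells, 65 had a UMI of no member, 104 had UMIs of 2 members and 3 cells had UMIs of 7 members, the most seen. At day 14 the 3 cells with Foxp3 held Ctla4 at 496 CPM, Icos at 1770 CPM and Tnfrsf18 at 1133 CPM, against 38.9, 258 and 158 CPM in the 90 others, and rest on 7, 25 and 16 UMIs.

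**Figure D4:**
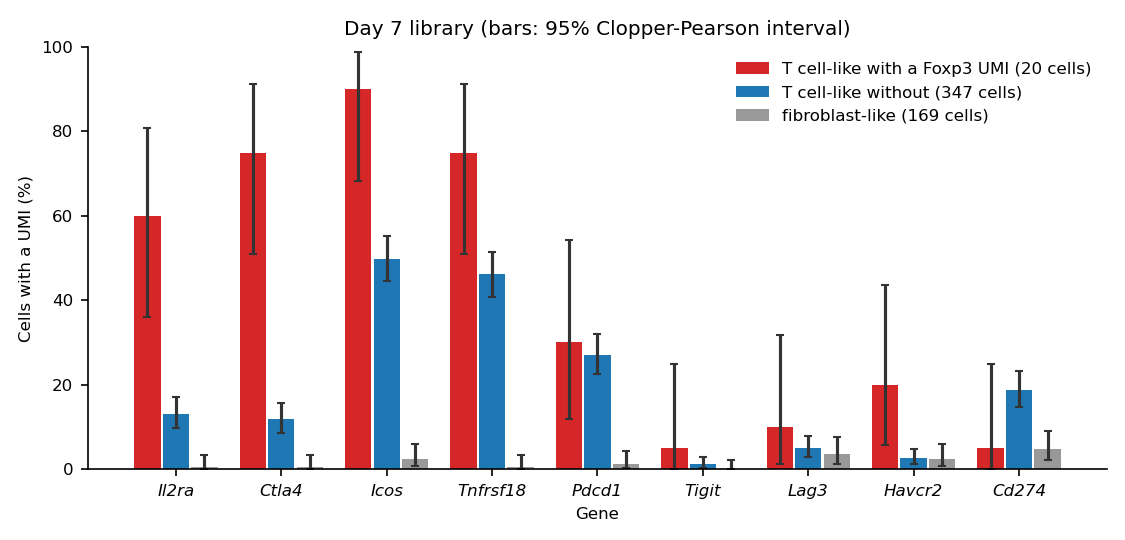
Share of cells with at least 1 UMI (y axis, percent) of each other member (x axis) at day 7, in T cell-like cells with a Foxp3 UMI, T cell-like cells without, and fibroblast-like cells, with 95% Clopper-Pearson intervals. Il2ra (60.0% against 13.0%) and Ctla4 (75.0% against 11.8%) stood furthest apart, and Pdcd1 (30.0% against 27.1%) did not separate the groups.

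The 250 bases before the annotated start are given for Foxp3, by which the cells were chosen, and for Il2ra, Ctla4 and Tnfrsf18. The latter were among the 5 members higher in the cells with Foxp3 at day 7. Icos was also among these 5 but had no entry matched by symbol. Havcr2 had an entry but was left out, as it no longer met the rule without the cell with the highest count. Sequences are from RefSeq on build GRCm38.p6, in which 8 of the 10 members matched by symbol, with a pair of entries for Foxp3 of which the more upstream one is given. Capitals mark GGAAA or its reverse complement TTTCC, the core letters recognised by NFAT transcription factors.
Foxp3 (chrX:7579426-7579675, plus strand): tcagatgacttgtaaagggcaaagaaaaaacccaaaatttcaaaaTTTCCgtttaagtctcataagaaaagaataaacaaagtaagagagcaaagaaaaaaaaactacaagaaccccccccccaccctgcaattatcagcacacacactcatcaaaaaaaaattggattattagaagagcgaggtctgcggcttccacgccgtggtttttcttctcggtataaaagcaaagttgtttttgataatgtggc
Il2ra (chr2:11642542-11642791, plus strand): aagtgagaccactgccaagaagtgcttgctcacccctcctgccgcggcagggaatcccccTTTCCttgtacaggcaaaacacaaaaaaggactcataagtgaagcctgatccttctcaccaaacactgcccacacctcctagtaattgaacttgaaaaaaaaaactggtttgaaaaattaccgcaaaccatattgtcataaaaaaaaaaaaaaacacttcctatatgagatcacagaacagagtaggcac
Ctla4 (chr1:60908775-60909024, plus strand): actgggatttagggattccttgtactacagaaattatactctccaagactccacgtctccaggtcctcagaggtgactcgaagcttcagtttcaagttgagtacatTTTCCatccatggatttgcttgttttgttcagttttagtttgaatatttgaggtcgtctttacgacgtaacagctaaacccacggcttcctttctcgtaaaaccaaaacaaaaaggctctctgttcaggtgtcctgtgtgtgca
Tnfrsf18 (chr4:156026072-156026321, plus strand): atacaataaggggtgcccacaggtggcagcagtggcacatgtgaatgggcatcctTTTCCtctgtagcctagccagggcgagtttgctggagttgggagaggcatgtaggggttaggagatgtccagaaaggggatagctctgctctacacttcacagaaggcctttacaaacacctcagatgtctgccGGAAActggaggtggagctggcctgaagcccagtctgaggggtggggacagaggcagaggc
Of the 32851 promoter windows of the same length, 55.6% hold at least 1 such match on either strand, as do 8 of the 9 entries of the members. Tnfrsf18 has 2 matches, Foxp3, Il2ra and Ctla4 have 1 each and Havcr2 has 0, and a match describes letters only.

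Partner genes of the members, a list of 40 ligands, receptors and regulatory T cell genes, gave the surroundings of these values. In the cells with Foxp3 at day 7, 10 of the 28 partners tested were higher and 2 lower, beside 4.56% and 2.33% of all genes. Tnfrsf4 (OX40, a costimulatory receptor) stood at 948 against 69.9 CPM (13.6, 10.5 to 17.5) and Tnfrsf9 (CD137) at 586 against 47.5 CPM (12.3, 8.93 to 16.9). Ikzf2 (Helios) stood at 1706 against 392 CPM (4.35, 3.70 to 5.08). Areg, encoding the tissue repair factor amphiregulin, stood at 448 against 13.1 CPM (34.3, 21.3 to 56.4), Il1rl1, the receptor of IL-33, at 181 against 22.4 CPM (8.09, 4.60 to 13.8), and Klrg1 at 267 against 12.6 CPM (21.2, 12.3 to 37.0). Cd226, a receptor that shares ligands with TIGIT, was lower, with 8.61 against 85.3 CPM (0.101, 0.003 to 0.570), as was Cd96, with 8.61 against 51.3 CPM. The levels in cells with Foxp3 rest on 20 cells. Single cells of the day 7 library, of any class, held up to 35 Areg, 18 Klrg1 and 11 Il1rl1 UMIs. Unlike those of the members, the partner ratios were not taken again without the cell with the highest count or among CD4 T-like cells alone.

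In the whole T cell-like class, 4 of 28 partners were higher and 2 lower at day 7 than at day 3, beside 2.93% and 3.12% of all genes. Ikzf2 went from 61.1 to 460 CPM (7.53, 4.99 to 11.9), Tnfrsf4 from 7.97 to 115 CPM (14.4, 4.88 to 70.4), Tnfrsf9 from 18.6 to 75.2 CPM and Areg from 7.97 to 35.4 CPM. Gzmb, the cytotoxic protease granzyme B, went from 436 to 92.9 CPM (0.213, 0.173 to 0.263), and Klrg1 from 58.5 to 25.6 CPM. The summed level of the 10 NK cell markers in T cell-like cells was 2330 CPM at day 3, 713 at day 7 and 687 at day 14, with 2, 0 and 2 of the 10 at 0, and its part in these values was not tested. From day 7 to day 14, 3 partners were higher, with Areg at 187 CPM (5.29, 3.88 to 7.22), Il1rl1 at 87.6 CPM and Tnfsf9 at 39.8 CPM, and 3 were lower, namely Tnfrsf4, Tnfrsf9 and Ccr4, of 28 tested and beside 2.89% and 2.24% of all genes. Areg and Il1rl1 are among the markers that named ILC2-like cells, which were 6 of 367 cells of the class at day 7 and 6 of 93 at day 14. These cells held 3 of the 80 Areg UMIs at day 7 and 74 of 94 at day 14, and 30 of 69 and 35 of 44 of those of Il1rl1.

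NK cell-like cells carried Tnfrsf18 as well. Tnfrsf18 had 16 UMIs in 14 of 57 cells at day 3, 157 UMIs in 82 of 157 cells at day 7 and 16 UMIs in 10 of 34 cells at day 14, or 58.4, 163 and 109 CPM, beside 122, 177 and 185 CPM in T cell-like cells. The day 7 library was the highest, and the ratio to day 3 was 2.79 (1.67 to 5.01). Icos went from 3 UMIs (10.9 CPM) to 40 UMIs (41.6 CPM), a ratio of 3.80 (1.21 to 19.2). With these, 2 of 4 members tested were higher at day 7 and 0 lower, beside 3.53% and 3.87% of all genes. Il2ra (21.9 and 30.1 CPM) and Cd274 (32.8 and 37.4 CPM) had ratios with intervals that held 1. The make-up of the class differed between these libraries. Its fibroblast markers stood at 204 CPM at day 3 and 738 at day 7, with 1 and 0 of 9 at 0. The dendritic markers stood at 1715 and 827 CPM, with 10 and 4 of 15 at 0. The summed level of the 10 NK cell markers in the class was 19123 CPM at day 3 and 10419 at day 7, with 0 of the 10 at 0, and all 57 cells of day 3 but 139 of the 157 of day 7 lay in sub-clusters named NK. In those cells alone, a check added after the data were examined, Tnfrsf18 stood at 58.4 and 149 CPM (2.55, 1.51 to 4.60) and Icos at 10.9 and 36.3 CPM (3.31, 1.03 to 17.0). The part of the marker differences in these values was not tested. Of the 18 partners tested, 3 were higher at day 7 and 4 lower, beside the same shares of all genes. Ikzf2 went from 62.0 to 180 CPM (2.90, 1.76 to 5.09), Tnfsf9, the ligand of CD137, from 0 to 23 UMIs and Nt5e, the ectoenzyme CD73, from 1 to 24 UMIs. Tnfrsf9 went from 485 to 144 CPM, Gzmb from 1894 to 578 CPM, Klrg1 from 172 to 43.7 CPM and Entpd1, the ectoenzyme CD39, from 62.0 to 16.6 CPM.

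Tigit was scarcely detected. The 5405 cells held 18 Tigit UMIs in 17 cells, 10 of them in T cell-like and 8 in NK cell-like cells, with 0 in every other class. In T cell-like cells the level was 7.97, 2.21 and 3.98 CPM at days 3, 7 and 14, and no comparison had 20 UMIs. In the RefSeq annotation Tigit lies over part of Zbtb20, and as for Foxp3 the treatment of reads in the overlap is not given in the sources used here. Differences in Tigit were not detectable at this depth.

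Havcr2 and Cd274 lay mostly in myeloid classes. In the RefSeq annotation Cd274 overlaps Plgrkt, and the counting of reads in that overlap is likewise not given. In monocyte/macrophage-like cells Havcr2 had 171 UMIs or 36.6 CPM (31.3 to 42.6) at day 3, 677 UMIs or 80.4 CPM (74.4 to 86.6) at day 7 and 86 UMIs or 60.7 CPM (48.5 to 74.9) at day 14, with a UMI in 20.2%, 39.5% and 24.9% of cells. Cd274 stood at 11.4, 26.5 and 13.4 CPM. Both stood highest in the day 7 library, with ratios of day 7 to day 3 of 2.19 (1.85 to 2.61) and 2.33 (1.72 to 3.21). All 4 members with enough UMIs, these and the rarer Il2ra and Lag3, were higher at day 7 and 0 were lower, beside 5.26% and 3.82% of all genes. Il2ra had 2 and 24 UMIs and Lag3 1 and 43 UMIs, in 869 cells at day 7. Markers of other cell types differed in the class as well. From day 3 to day 7 the erythroid markers stood at 661 and 2245 CPM, the neutrophil markers at 118 and 250, the dendritic markers at 405 and 648 and the T cell markers at 5.36 and 17.3. Of these lists, 0 of 5, 0 of 8, 1 of 15 and 4 of 10 genes were at 0 at day 3, and 0, 0, 1 and 0 at day 7. Their part in the members' values was not tested.

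The make-up of this class differed between the libraries, so the 4 members were read within its 5 clusters of over 20 cells in both libraries. The cluster led by Pf4 and Ccl6 held 281 of 494 cells in the day 3 library but 48 of 869 in that of day 7, and Havcr2 stood in it at 23.5 and 83.9 CPM. The cluster with Lyz2 and Plac8 among its leading genes held 51 and 355 cells, and Havcr2 stood in it at 151 CPM at day 3 and 112 CPM at day 7. In the cluster led by Ms4a7, Apoe and C1qa, Havcr2 stood at 18.3 and 41.3 CPM. It stood at 36.8 and 75.9 CPM in the cluster led by Acp5 and C1qa and at 73.9 and 103 CPM in the one led by Hes1, so its level was above that of day 3 in 4 of the 5 clusters. Cd274 was also above in 4 of 5, with 31.1 and 46.0 CPM in the cluster with Lyz2 and Plac8, 8.50 and 21.3 in that of Pf4, 9.14 and 14.1 in that of Ms4a7 and 11.4 and 33.2 in that of Hes1, but 20.1 and 5.96 CPM (6 and 8 UMIs) in that of Acp5. The rule was not applied within clusters, and some of these pairs differ by less than 2-fold. The share of all genes that lay above in as many clusters was not taken. Il2ra had 17 of its 24 UMIs of day 7 in the Acp5 cluster, and Lag3 had 16, 15 and 10 of its 43 in those of Ms4a7, Lyz2 and Acp5. From day 7 to day 14, 1 of 4 members was higher and 0 lower in the class, beside 3.21% and 3.45% of all genes. This was Il2ra, at 2.85 CPM from 11 of 869 cells and 21.9 CPM from 11 of 181 cells, a ratio of 7.68 (4.36 to 13.7), with 9 of the 31 UMIs of day 14 in 1 cell. Cd274 and Havcr2 had ratios of 0.507 (0.299 to 0.810) and 0.755 (0.596 to 0.946). Over these days the neutrophil markers in the class stood at 250 and 45.9 CPM and the erythroid markers at 2245 and 9.17. The 7 CD8 T markers stood at 59.6 and 266 CPM and the monocyte/macrophage markers at 31136 and 43894. The part of these differences in the members' values was not tested.

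Among the partner genes in monocyte/macrophage-like cells, 7 of 26 tested were higher and 3 lower at day 7 than at day 3, beside 5.26% and 3.82% of all genes. Cd86, a ligand of CTLA-4 and CD28, stood at 185 against 75.8 CPM (2.44, 2.17 to 2.74), and Pvr, a ligand of TIGIT, at 45.8 against 20.6 CPM (2.23, 1.78 to 2.82). Lgals9, which encodes the TIM-3 ligand galectin-9, was lower, with 79.3 against 166 CPM (0.477, 0.429 to 0.530). From day 7 to day 14, 3 of 25 partners were higher and 3 lower, beside 3.21% and 3.45%. Tnfsf9 stood at 142 and 334 CPM (2.35, 2.11 to 2.62), Il1rl1 at 4.04 and 18.3 CPM and Cd226 at 0.712 and 11.3 CPM. Cd80, the other ligand of CTLA-4, stood at 27.8 and 9.17 CPM (0.330, 0.173 to 0.576), and Pdcd1lg2 and Tnfrsf9 had 29 and 30 UMIs at day 7 and 0 at day 14.

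Neutrophil-like cells, of which none were kept at days 0 and 14, held both genes at a low median depth of 2859 UMIs at day 3 and 3049 at day 7. Cd274 stood at 98.1 CPM (75.9 to 125) at day 3 and 195 CPM (152 to 245) at day 7, and Havcr2 at 23.8 CPM (13.6 to 38.6) and 89.2 CPM (61.4 to 125). A single cell held 13 of the 66 Cd274 UMIs of day 3 and another 19 of the 72 of day 7, and without these cells the levels were 79.2 and 145 CPM. The summed level of the 8 neutrophil markers was 48143 CPM at day 3 and 35709 at day 7 and that of the 9 fibroblast markers 746 and 1672 CPM, with 0 and 1 at 0 in both libraries, and their part in the values was not tested. A Cd274 UMI was seen in 12.0% of 233 and 20.2% of 119 cells.

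The dendritic-like subsets separated the pair of genes. Mature dendritic-like cells, named from genes such as Ccr7 and Fscn1, held Cd274 at 290 CPM (234 to 354) at day 3, 469 CPM (413 to 531) at day 7 and 319 CPM (197 to 488) at day 14, in 25, 58 and 9 cells. Type 2 dendritic-like cells held it at 26.5 and 60.3 CPM at days 3 and 7, and 1 UMI was found in their 19 cells at day 14. At day 7 the ratio was 7.77 (6.21 to 9.78), and 44 of the 58 mature cells had a Cd274 UMI. Havcr2 was the reverse, with 1 UMI in the 58 mature cells (1.87 CPM) and 119 UMIs or 62.4 CPM in the 141 type 2 cells. Il2ra stood at 185 CPM (150 to 225) in mature cells, where 31 of 58 cells had a UMI, and at 3.67 CPM in type 2 cells, a ratio of 50.4 (23.6 to 129). Tnfrsf18 stood at 103 against 15.2 CPM. In all, 3 of 4 members tested were higher in mature cells and 1 was lower, where 10.5% of all genes tested were higher and 23% lower. Type 1 dendritic-like cells, 10, 13 and 7 in number, held Havcr2 at 84.3, 74.3 and 95.6 CPM.

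**Figure D5:**
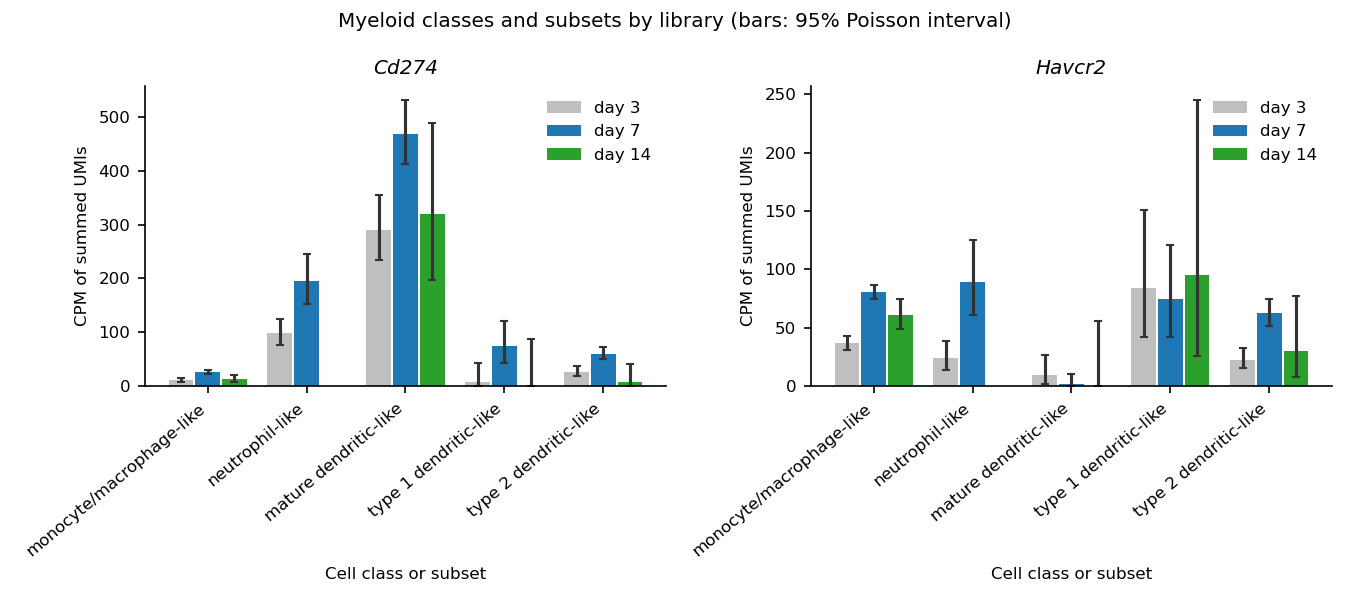
CPM of the summed UMIs (y axis) of Cd274 and Havcr2 in the myeloid classes and dendritic-like subsets (x axis) of the day 3, 7 and 14 libraries, with 95% Poisson intervals; no neutrophil-like cells were kept at day 14. Cd274 was highest in mature dendritic-like cells (469 CPM at day 7), where Havcr2 was nearly absent (1.87 CPM).

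Over the whole dendritic-like class, 1 of 5 members was higher at day 7 than at day 3 and 0 were lower, beside 3.23% and 3.18% of all genes. This was Cd274, at 50.1 and 101 CPM (2.01, 1.66 to 2.46), and without the cell with the highest count the gene no longer met the rule. Markers of other cell types differed in the class as well. At days 3 and 7 the neutrophil markers stood at 109 and 275 CPM and the fibroblast markers at 392 and 622. The monocyte/macrophage markers stood at 4010 and 3195 CPM and the dendritic markers at 3747 and 3581. Their part in the values of this class was not tested. Havcr2 stood at 21.3 and 38.5 CPM (1.81, 1.33 to 2.48), a ratio that was 0.192 to 0.240 in the small classes left by the alternatives named above, Il2ra at 33.3 and 25.4 CPM and Tnfrsf18 at 18.3 and 25.7 CPM. At day 14, 1 of the 43 dendritic-like cells held 15 of the class's 20 Icos UMIs and 1 cell held 14 of its 20 Pdcd1 UMIs, so the levels of these genes there rest on single cells. Of 27 partners tested, 1 was higher at day 7 (Tnfrsf4, 8.59 and 25.2 CPM) and 6 were lower, namely Nectin2, Lgals9, Tnfsf4, Cd200r1, Il1rl1 and Areg, beside the same shares of all genes. Il1rl1 went from 29.9 to 4.95 CPM (0.166, 0.0984 to 0.268) and Cd200r1 from 69.9 to 19.6 CPM. Between mature and type 2 dendritic-like cells at day 7, 7 of 20 partners were higher in mature cells and 6 lower, beside 10.5% and 23%. Pdcd1lg2, the other ligand of PD-1, stood at 138 against 32.0 CPM, Tnfrsf4 at 196 against 1.57 CPM and Cd200 at 258 against 4.20 CPM, and Cd80, Pvr, Tnfrsf9 and Ebi3 were the others higher. Vsir, the checkpoint gene of VISTA, stood at 11.2 against 71.9 CPM and Lgals9 had 0 against 65 UMIs, and Hmgb1, Tgfb1, Cd200r1 and Entpd1 were the others lower.

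The UMIs of Lag3 were spread over many classes. T cell-like cells held 11.6% of its UMIs, dendritic-like cells 22.8%, monocyte/macrophage-like cells 17.5%, fibroblast-like cells 16.2% and smooth muscle-like cells 15.5%. Its highest level was in the 10 plasmacytoid dendritic-like cells of day 7, at 236 CPM (154 to 346) with a UMI in 9 of 10 cells. In T cell-like cells it stood at 13.3, 11.9 and 5.97 CPM at days 3, 7 and 14. Per UMI of the class it was thus above the 3.72 CPM of the other immune-like cells at day 3 (3.57, 1.08 to 9.26), with an interval that held 1 once the cell with the highest count was left out, and at day 7 it stood beside 7.59 CPM in them (1.57, 0.992 to 2.42). Smooth muscle-like cells had 34 Lag3 UMIs at day 3, or 12.8 CPM (8.85 to 17.9), in 15 of 70 cells at a median depth of 34626.5 UMIs, and 4.39 CPM at day 7. The 9 smooth muscle markers stood at 22250 and 14060 CPM in this class and the 9 fibroblast markers at 6308 and 14399, with 0 of either at 0, and their part in the Lag3 values was not tested. The nearest protein-coding gene to Lag3 in the RefSeq annotation is Ptms, 1241 bases away, and whether reads of the neighbour contributed was not tested.

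Likeness of pattern was taken as the correlation of log2(CPM + 10) over the 24 class-by-day sums of at least 20 cells, ranked over 12520 genes, as a description in which sums share libraries and depth. Icos was most like Trat1 (r = 0.957), a T cell receptor adaptor, and Pdcd1 was most like Icos (0.932). Il2ra was most like Il7r (0.965), the IL-7 receptor, Tnfrsf18 like Tespa1 (0.972) and Ctla4 like Nsg2 (0.958). Havcr2 was most like Milr1 (0.918) and Cd274 like Samsn1 (0.936), whereas the best match of Lag3, Borcs8, reached only 0.730. Foxp3 and Tigit had too few UMIs for this measure.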

How the data were processed

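Single-cell RNA was measured in 4 mouse carotid libraries, 1 per time point, each its own group per the labels. The authors deposited raw UMI counts per gene and barcode, not normalized, for barcodes called by Cell Ranger. The file headers name Cell Ranger 3.0.2 and the study's methods another version. The genome build was not stated in a usable form, so no coordinates of the files are printed. The members and lists were chosen with earlier results of these data known.

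Cells were kept at 200 or more genes and at most 20% mitochondrial UMIs, which 453 barcodes failed. Also removed were the highest Scrublet scores at 0.8% per 1000 barcodes of a library (106) and the shallower copies of shared barcodes (217), some of which failed several filters. Together the removed barcodes held between 0% and 4.83% of a member's UMIs. After scaling each cell to 10000 and taking logs, 2000 variable genes without the members and their 40 partners, 30 principal components and 15 neighbours entered Leiden clustering at resolution 1 (scanpy 1.11.5, leidenalg 0.10.2). The variable genes were adjusted for the mitochondrial share. A marker counted at 50 CPM, in 10% of cells and 3 times the lower quartile of the clusters with 20 CPM added. A name needed 3 such markers and no other class with more of its markers among the 10 leading genes. Clusters with a median depth under 0.333 of their library's also needed 1 of their own markers among those genes. Cycling cells took the class of at least 60% of their named neighbours. This rule and the list of immature thymocyte markers were adjusted after the data were examined. T, NK and dendritic-like cells were clustered again for subsets. No cell annotation from the study was used, so differences from the study may come from rebuilt names.

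UMIs were summed per class and library. Ratios carry exact conditional binomial intervals. UMIs are counted molecules, but intervals and the limit of 3 counts for a 0 cover counting error only, and the difference between animals is unknown. Named genes were the 10 members, the 40 partners and the 3 genes most like each member with at least 100 UMIs. The rule for a difference (2-fold, 20 UMIs, an interval without 1) was run on simulated counts with counting error alone. These held no variation between cells, animals or libraries, so they cannot show how the rule fares with 1 library per day. Alternatives were separate clustering of the libraries, resolution 2, the mean of each cell's CPM, no doublet removal, at least 500 genes per cell, a 1.5-fold rule, cells gated on Cd3 genes without Lyz2, cells thinned to 1000 UMIs and, chosen after the data were examined, shared barcodes kept, the cell with the highest count left out, the ILC2-like cells and the Dntt-led sub-cluster left out, and CD4 T-like cells alone. No columns were left out. Intervals and sums used numpy 2.4.6 and scipy 1.17.1.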

Additional observations from a re-analysis of the deposited data

Results flagged for a closer look

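Havcr2 differed in opposite directions in a pair of cell classes over the same days. From day 3 to day 7 its ratio was 0.349 in T cell-like cells and 2.19 in monocyte/macrophage-like cells. Each class had 1 library per day, so the difference between the classes was not tested. The T cell-like value rests on 10 UMIs at day 3 and 21 UMIs at day 7, all of those at day 3 in CD8 T-like cells, and the monocyte/macrophage-like value on 171 and 677 UMIs. Without the day 3 cell with the highest count, the T cell-like ratio no longer met the rule. A single sub-cluster held 37 of the 39 CD8 T-like cells at day 3 and 43 of 111 at day 7. In the monocyte/macrophage-like cluster with Lyz2 and Plac8, Havcr2 was lower at day 7, and in the other clusters read it was higher. With 1 library per group, no library could be compared with others of its group.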

How the results depend on the processing

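Of 566 ratios of single members under the alternatives, 28 lay on the other side of 1 from the reported ratio, and 0 of these reported ratios had met the rule. They include Il2ra in T cell-like cells from day 3 to day 7 (0.789 reported, 1.31 without ILC2-like cells and the Dntt-led sub-cluster, 1.61 for cells gated on Cd3 genes), Tnfrsf18 there from day 7 to day 14 (1.04 reported, 0.261 with libraries clustered separately), Pdcd1 there over the same days (0.570 and 1.05), Cd274 in CD4 against CD8 T-like cells (0.923 reported, 1.99 with libraries clustered separately, 3.59 with shared barcodes kept) and Havcr2 in dendritic-like cells (1.81 reported, 0.192 with no doublets removed, 0.240 at 500 genes per cell and 0.205 with shared barcodes kept). Of the counts of members 161 values stayed within 1.5 times of the reported one while 20 did not. No paired analysis was possible because each day had 1 library and the labels share no replicate numbers. For T cell-like cells from day 3 to day 7, members higher numbered 2, but 1 with no doublets removed, 4 by the mean of each cell's CPM and 4 without ILC2-like cells and the Dntt-led sub-cluster, and members lower numbered 0 in place of 1 without the cell with the highest count. From day 7 to day 14, members lower numbered 1, but 3 with libraries clustered separately, 2 by the mean of each cell's CPM and 2 with a 1.5-fold rule. Against other immune-like classes at day 14, 2 in place of 1 were lower by the mean of each cell's CPM. In cells with Foxp3, 3 in place of 5 members were higher among CD4 T-like cells alone and also 3 after thinning, a number that was 2 to 4 over 20 further draws of the thinning, with Ctla4 in 20, Tnfrsf18 in 18, Icos in 12 and Il2ra in 2 of them. In dendritic-like cells from day 3 to day 7, 0 in place of 1 were higher with separate clustering, at resolution 2, by the mean of each cell's CPM and without the cell with the highest count, and at resolution 2 the count lower in mature than in type 2 cells was 0 in place of 1. In monocyte/macrophage-like cells from day 7 to day 14, 1 in place of 0 was lower with separate clustering, no doublets removed, 500 genes per cell, shared barcodes kept and CPM averaged over cells. With no doublets removed, 500 genes per cell or shared barcodes kept, the dendritic-like class had 60 or 61 cells at day 7 in place of 358 and 25 or 28 at day 3 in place of 167, and its subsets got no name and hence no value. The causes were not tested. Tigit had 18 UMIs in all, Foxp3 at day 14 rests on 5 UMIs in T cell-like cells, and 8 CD4 T-like cells were present at day 3.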
